A study of Homo sapiens and Mus musculus with 100 samples.

Results

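The genes of haem synthesis and breakdown were followed here through every comparison of a study of vitamin B2 (riboflavin) deprivation and of AhR, the transcription factor (aryl hydrocarbon receptor) that tryptophan products and many aromatic compounds activate. The 9 genes were matched by symbol and are ALAS1, ALAD, UROS, UROD, CPOX, PPOX, FECH, HMOX1 and BLVRA. All 9 were found among the 28035 genes listed in each of 6 human tables, and their mouse counterparts among the 24940 genes of 2 mouse tables. Messenger RNA was measured by 3′-end sequencing in 100 labelled samples in 32 groups, of which 98 columns were analysed.

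HepG2, a human liver tumour line with many hepatocyte features, was kept without vitamin B2 or in control conditions for 3, 6, 9 or 12 days. In 3 further HepG2 sets, all taken at day 12, deprivation and control were combined with an AhR inhibitor (10 µM per the column headers) or none, with or without an inhibitor labelled IDO/TDO, the names of enzymes that start the breakdown of tryptophan to kynurenine, and with a guide RNA against AhR or a control guide RNA. A set treated with Kyn or with DMSO, each with or without AhR inhibitor and also labelled day 12, carries no deprivation medium in its labels. Caco-2, a human colon tumour line with enterocyte features, was deprived or kept as control for 9 days. Mouse hepatocytes labelled AhR-flox and 4 weeks were deprived or control, each with an adenovirus labelled Ad-Cre or Ad-Cont. Mouse livers came from deprived or control mice, also at 4 weeks. Each group held 3 libraries, except the liver groups with 4 columns each. The liver columns name the diet and not the animal, and 2 of 10 labelled liver samples were not analysed here. Not given in the sources used here are the inhibitors' names, the Kyn dose, the guide site, the floxed exon and the animals' strain and age at the start.

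Haem is built from glycine and succinyl-CoA in steps shared between mitochondria and cytosol. ALAS1 makes 5-aminolevulinate and is the rate-limiting step in liver, where haem represses it. ALAD joins pairs of that product into porphobilinogen, UROS closes the porphyrin ring, and UROD and CPOX trim its side chains. PPOX, a flavoprotein that carries FAD, a cofactor made from vitamin B2, then oxidises the ring, and FECH inserts iron. HMOX1 opens haem to biliverdin, iron and carbon monoxide, and takes electrons from a flavin-containing reductase. It is a classical target of the repressor BACH1, which haem releases from DNA, and of the activator NRF2. BLVRA reduces biliverdin to bilirubin. Liver uses much of its haem for cytochromes P450.

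Promoter sequence was matched from RefSeq (GRCh38.p14) for 7 of the 9 genes. None was found for HMOX1 and UROS, so these were not searched. For the others the 250 bases before the annotated start were searched on both strands for 2 motifs. TGACNNNGC, the antioxidant response element to which NRF2 and BACH1 bind with small MAF proteins, was present in 10.9% of 35116 human promoters and in 1 of the 7, that of FECH. GCGTG, the core of the element bound by AhR, was present in 32.2% of those promoters and in 4 of the 7, those of ALAD, PPOX, FECH and BLVRA. The RefSeq starts used for this search differ from the starts of some gene spans given below. Against those spans the PPOX match lies inside the gene, and the FECH match to TGACNNNGC crosses the gene's start. FECH keeps matches to GCGTG upstream of its span. The sequences just upstream of 5 genes are given here 5′ to 3′, because the genes went different ways in deprived HepG2: ALAS1, UROD and BLVRA were higher at day 12, ALAD was lower, and CPOX was lower at day 6 and did not pass the test at day 12. Capitals mark matches to either motif or to its reverse complement. A match is a description of the letters and not a binding site.
ALAS1, chr3:52197833-52198082, plus strand: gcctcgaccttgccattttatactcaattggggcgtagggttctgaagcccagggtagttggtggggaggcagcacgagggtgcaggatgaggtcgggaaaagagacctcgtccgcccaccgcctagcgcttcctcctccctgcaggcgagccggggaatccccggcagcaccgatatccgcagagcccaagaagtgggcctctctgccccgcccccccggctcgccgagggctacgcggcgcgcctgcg
UROD, chr1:45012004-45012132, plus strand: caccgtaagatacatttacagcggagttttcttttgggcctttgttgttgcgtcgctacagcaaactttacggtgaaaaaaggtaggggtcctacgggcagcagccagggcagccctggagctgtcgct
BLVRA, chr7:43758430-43758672, plus strand: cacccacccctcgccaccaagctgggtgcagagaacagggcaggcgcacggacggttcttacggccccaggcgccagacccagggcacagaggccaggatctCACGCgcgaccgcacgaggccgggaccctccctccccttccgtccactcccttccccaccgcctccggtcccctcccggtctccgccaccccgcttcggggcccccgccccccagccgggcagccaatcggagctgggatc
ALAD, chr9:113401339-113401534, minus strand: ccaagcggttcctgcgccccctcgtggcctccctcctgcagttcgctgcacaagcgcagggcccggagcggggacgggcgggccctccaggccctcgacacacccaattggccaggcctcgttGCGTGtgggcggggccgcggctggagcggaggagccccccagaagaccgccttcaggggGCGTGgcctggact
CPOX, chr3:98593612-98593861, minus strand: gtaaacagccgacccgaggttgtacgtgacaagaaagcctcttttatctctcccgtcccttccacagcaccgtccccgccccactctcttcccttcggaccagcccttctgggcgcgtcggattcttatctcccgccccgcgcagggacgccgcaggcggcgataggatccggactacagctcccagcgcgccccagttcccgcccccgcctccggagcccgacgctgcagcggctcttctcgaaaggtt
The printed stretches of ALAS1, UROD and CPOX hold no match to either motif, that of BLVRA holds 1 match to the AhR core and that of ALAD holds 2.

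In the files' hg38 coordinates ALAS1 lies at chr3:52198083-52214327 on the plus strand, UROD at chr1:45012133-45015669 on the plus strand and FECH at chr18:57544841-57586737 on the minus strand. HMOX1 lies at chr22:35381067-35394214 on the plus strand and BLVRA at chr7:43758673-43807342 on the plus strand. The spans given for CPOX, ALAD, UROS and PPOX are chr3:98579450-98593611, chr9:113386312-113401338, chr10:125788578-125823268 and chr1:161166381-161171220. Levels are in TPM, a measure of transcripts scaled to gene length and library size, and differences are log2 of TPM + 1, deprived minus control unless said otherwise, given with the standard error (SE) and limma's Benjamini-Hochberg adjusted p over all genes tested. A gene was called at an adjusted p under 0.05. The kit reads transcript ends while TPM divides by length, so levels are set side by side within a gene only.

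Libraries held 4049600 to 19644000 reads as recovered from the values. In human libraries HMOX1 was covered by 28 to 1203 reads, ALAS1 by 50 to 796, UROD by 28 to 1242, FECH by 21 to 570 and PPOX by only 10 to 98. Whether replicates are separate cultures or animals is not in the labels, so p measures the spread between these libraries, which may be technical. In these bulk samples, fewer cells of a type and less RNA per cell cannot be told apart. As a check of the labels, CYP1A1, a classical AhR target, averaged 1.74 TPM in deprived and 1.88 TPM in control cells with AhR guide RNA, against 33.5 TPM in deprived and 4.20 TPM in control cells with control guide RNA. AHR mRNA was not lower with its guide (7.70 TPM with AhR guide and 6.81 TPM with control guide in deprived cells), and 3′ reads outside an edited site check nothing. All 7 hepatocyte markers were detected in every HepG2 group. Their summed level was 6686 to 7049 TPM in deprived and 24956 to 26180 TPM in control HepG2 at day 12, against 5439 to 5760 TPM and 6296 to 6355 TPM at day 3. The part of this gap in the results below was not tested.

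Over 12 days of deprivation HepG2 cells came to hold more mRNA for HMOX1, UROD, FECH and ALAS1 than their controls, while the other synthesis enzymes moved little or the other way. HMOX1, the haem-opening enzyme, was already higher at day 3 and stood 2.16 log2 units above control at day 12. UROD was 0.99, FECH 0.76 and ALAS1 0.64 log2 units higher at day 12, BLVRA 0.38 units higher and ALAD 0.28 units lower. At day 3 limma called 1 of the 9 genes, where 4.74% of all 12488 genes were called. The count was 3 of 9 at day 6, against 33% of all genes, and 6 of 9 at day 9, against 49.1% of all genes. Day 12 gave 6 of 9 calls, against 52.4% of all genes, so 6 of 9 is only somewhat above the share of all genes. At day 9, 5 genes were higher and 1 lower, where 29.4% of all genes were higher and 19.7% lower, against 4 higher and 3 lower under quantile normalization and 4 higher and 2 lower under median scaling. At day 12, 5 genes were higher and 1 lower, where 34% of all genes were higher and 18.4% lower, and the median difference was 0.38 over the 9 genes, against 0.10 over all genes.

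**Figure D1:**
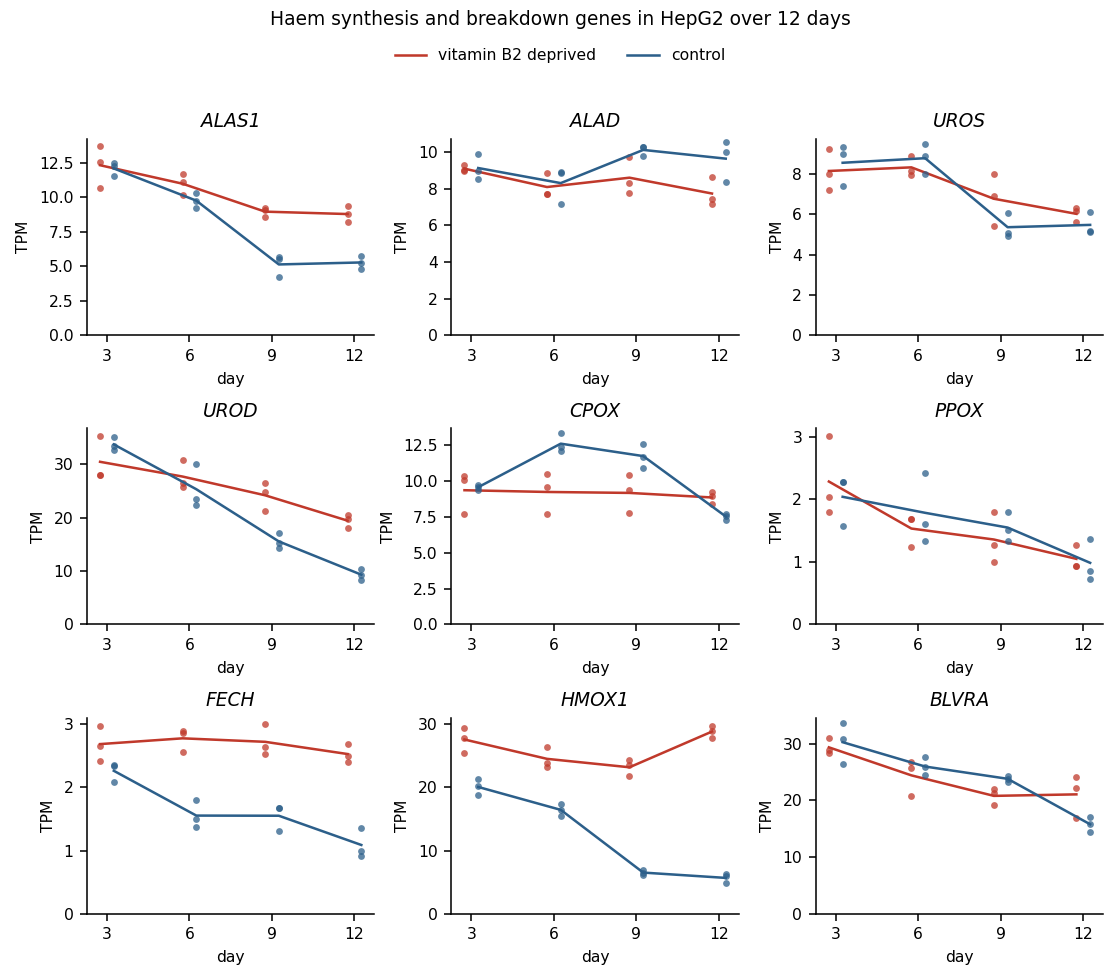
Level of each of the 9 genes in HepG2 (TPM, vertical axis) by day without vitamin B2 (red) or in control conditions (blue); points are libraries, 3 per group, and lines join group means. HMOX1 and FECH separate at every day. At day 12 HMOX1 lies at 27.8 to 29.8 TPM in deprived and 4.89 to 6.23 TPM in control cells. UROD, ALAS1 and CPOX also do not overlap at day 12, but the CPOX difference did not pass by limma.

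ALAS1, the first and rate-limiting enzyme, did not differ detectably at day 3, with 12.5, 13.7 and 10.7 TPM in deprived and 11.6, 12.2 and 12.4 TPM in control cells (difference 0.02, SE 0.09, adjusted p = 0.951). At day 9 it was at 9.05, 9.24 and 8.57 TPM in deprived and 5.49, 4.23 and 5.66 TPM in control cells (0.71, SE 0.09, adjusted p = 1.15e-06). At day 12 it was at 8.20, 9.33 and 8.81 TPM in deprived and 5.26, 4.83 and 5.72 TPM in control cells (0.64, SE 0.09, adjusted p = 3.51e-06). All 3 deprived libraries lay above all 3 controls at both days. ALAS1 fell between day 3 and day 12 in both arms, by 0.44 log2 units in deprived cells (adjusted p = 0.000368) and by 1.06 in control cells (adjusted p = 7.63e-10). The deprivation effect was larger at day 12 than at day 3 by 0.62 (SE 0.13, adjusted p = 0.000584).

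UROD, which removes carboxyl groups from the ring's side chains, had the second largest difference at day 12. At day 3 it stood at 28.1, 27.9 and 35.4 TPM in deprived and 32.7, 33.3 and 35.1 TPM in control cells, with overlap (-0.15, SE 0.11, adjusted p = 0.523). At day 9 it was at 26.6, 21.2 and 24.8 TPM in deprived and 17.1, 14.3 and 15.3 TPM in control cells (0.60, SE 0.11, adjusted p = 8.99e-05). At day 12 it was at 19.8, 18.1 and 20.5 TPM in deprived and 8.31, 9.20 and 10.5 TPM in control cells (0.99, SE 0.11, adjusted p = 1.01e-07). Neither late day had overlap between the arms. UROD fell with time in both arms, by 0.62 log2 units in deprived cells and by 1.75 in control cells, and the deprivation effect grew by 1.14 (SE 0.16, adjusted p = 4.56e-06).

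FECH, which places iron in the ring, passed the test as higher in deprived cells at days 6, 9 and 12. At day 3 the libraries, 2.65, 2.97 and 2.42 TPM in deprived and 2.36, 2.08 and 2.34 TPM in control cells, did not overlap either, but the difference of 0.17 did not pass (SE 0.10, adjusted p = 0.366). Its levels at day 6 were 2.86, 2.56 and 2.89 TPM in deprived and 1.79, 1.50 and 1.36 TPM in control cells (0.57, SE 0.10, adjusted p = 8.6e-05). At day 9 they were 2.52, 2.99 and 2.64 TPM in deprived and 1.67, 1.31 and 1.67 TPM in control cells (0.55, SE 0.10, adjusted p = 6.58e-05). At day 12 they were 2.49, 2.40 and 2.69 TPM in deprived and 0.998, 0.911 and 1.35 TPM in control cells (0.76, SE 0.10, adjusted p = 7.03e-07). The arms did not overlap at any of the 4 days. In deprived cells the difference between day 12 and day 3 was -0.06 (adjusted p = 0.633), while FECH fell by 0.65 in control cells (adjusted p = 3.7e-06). At such low levels the log2 of TPM + 1 understates the ratio of means, which were 2.52 ± 0.146 TPM in deprived and 1.09 ± 0.235 TPM in control cells at day 12 (SD, n = 3 each).

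CPOX, which acts between UROD and PPOX, went the other way at the middle days. It was at 7.68, 9.56 and 10.5 TPM in deprived and 13.4, 12.1 and 12.4 TPM in control cells at day 6 (-0.42, SE 0.10, adjusted p = 0.00327), with no overlap. The day 9 difference was -0.33 (SE 0.10, adjusted p = 0.0112). It missed the threshold without control replicate 2 (adjusted p = 0.0540) or deprived replicate 1 (adjusted p = 0.0922), and in limma-voom on recovered reads (adjusted p = 0.0633). At day 12 the libraries stood at 9.21, 8.97 and 8.41 TPM in deprived and 7.69, 7.61 and 7.32 TPM in control cells, without overlap, and the difference of 0.21 did not pass (SE 0.10, adjusted p = 0.101). It did pass with voom (0.38, adjusted p = 0.00222) and in a fit of the day 12 libraries alone (adjusted p = 0.0324).

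ALAD, the second enzyme, was at 7.14, 7.45 and 8.63 TPM in deprived and 10.5, 10.0 and 8.39 TPM in control cells at day 12, and the arms overlapped. The difference of -0.28 (SE 0.09, adjusted p = 0.0153) missed the threshold without any 1 of control replicates 1 and 2 and deprived replicates 1 and 2 (adjusted p = 0.0527 to 0.0852), and with voom (adjusted p = 0.111). UROS, which closes the ring, was called at day 9, at 8.00, 6.93 and 5.41 TPM in deprived and 6.09, 5.08 and 4.92 TPM in control cells (0.28, SE 0.11, adjusted p = 0.0456). That call was lost without any 1 of control replicates 2 and 3 and deprived replicates 1 and 2 (adjusted p = 0.112 to 0.263) and under both scalings (0.24 and 0.23), and the day 12 difference was 0.12 (adjusted p = 0.400). PPOX, the FAD-carrying enzyme, was at 0.934, 1.28 and 0.935 TPM in deprived and 1.37, 0.728 and 0.855 TPM in control cells at day 12 (0.05, SE 0.16, adjusted p = 0.807). PPOX did not pass at any of the 4 days, at read numbers that leave wide errors. From day 3 to day 12 PPOX fell in both arms, by 0.67 in deprived and 0.62 in control cells.

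HMOX1, the first step of breakdown, was higher in all 3 deprived libraries than in all 3 controls at each of the 4 days. At day 3 it was at 27.9, 29.4 and 25.5 TPM in deprived and 21.3, 20.2 and 18.8 TPM in control cells (0.44, SE 0.08, adjusted p = 0.00117). At day 6 it was at 23.2, 26.4 and 23.9 TPM in deprived and 17.4, 15.5 and 16.4 TPM in control cells (0.55, SE 0.08, adjusted p = 9.01e-06). At days 9 and 12 the deprived levels stayed in a similar range while the control levels were lower. At day 9 the levels were 21.8, 23.5 and 24.3 TPM in deprived and 6.93, 6.46 and 6.19 TPM in control cells (1.68, SE 0.08, adjusted p = 5.42e-14). At day 12 they were 29.8, 27.8 and 28.9 TPM in deprived and 6.23, 5.93 and 4.89 TPM in control cells (2.16, SE 0.08, adjusted p = 3.68e-16). In control cells HMOX1 fell by 1.66 log2 units between day 3 and day 12 (adjusted p = 1.78e-14), whereas in deprived cells the change was 0.06 (adjusted p = 0.524). Under quantile normalization the change in deprived cells was 0.22 (adjusted p = 0.0193) and under median scaling 0.24 (adjusted p = 0.0117). The deprivation effect was 1.72 larger at day 12 than at day 3 (SE 0.11, adjusted p = 4.4e-11).

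BLVRA, the next step of breakdown, was at 17.0, 22.2 and 24.1 TPM in deprived and 15.8, 17.2 and 14.5 TPM in control cells at day 12, with overlap through the lowest deprived library. The difference was 0.38 (SE 0.11, adjusted p = 0.00438), and 0.25 under quantile normalization (adjusted p = 0.0536). At day 9 the deprived libraries, 19.2, 21.3 and 22.0 TPM, lay below the controls, 24.3, 23.8 and 23.3 TPM, but the difference of -0.19 did not pass (adjusted p = 0.151). It passed under quantile normalization (-0.27, adjusted p = 0.0416). BLVRA fell with time by 0.47 in deprived and by 0.89 in control cells.

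In control HepG2, 8 of the 9 genes fell between day 3 and day 12, and in deprived HepG2 5 of 9 did, where 46.8% of all genes fell in control cells and 35.3% in deprived cells (66.9% and 49.7% changed in either direction). The median change was -0.38 over the 9 genes in deprived and -0.65 in control cells, against -0.12 and -0.21 over all genes. ALAD was the exception in control cells, at 0.07 (adjusted p = 0.541), and it passed as higher under quantile normalization (0.32, adjusted p = 0.00474) and median scaling (0.30, adjusted p = 0.00754). CPOX fell by 0.31 in control cells (adjusted p = 0.0120), and by 0.07 (adjusted p = 0.564) and 0.08 (adjusted p = 0.510) under those scalings, which missed the threshold. UROS in deprived cells, -0.38, was -0.22 under quantile normalization (adjusted p = 0.139) and missed the threshold without deprived replicate 3 of day 3 (-0.29, adjusted p = 0.0594). Under both scalings the calls were thus 1 higher and 7 lower in control cells, and 1 higher and 4 lower in deprived cells. The deprivation effect was larger at day 12 than at day 3 for 5 of 9 genes, where 37.7% of all genes differed and for 23.8% the effect was larger. Under both scalings it was larger for 4 and lower for ALAD (-0.37, adjusted p = 0.0330, and -0.34, adjusted p = 0.0417). The fifth beside HMOX1, UROD, ALAS1 and FECH was BLVRA (0.42, SE 0.15, adjusted p = 0.0322), whose call was lost on leaving out any 1 of 8 libraries (adjusted p = 0.0513 to 0.105).

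**Figure D2:**
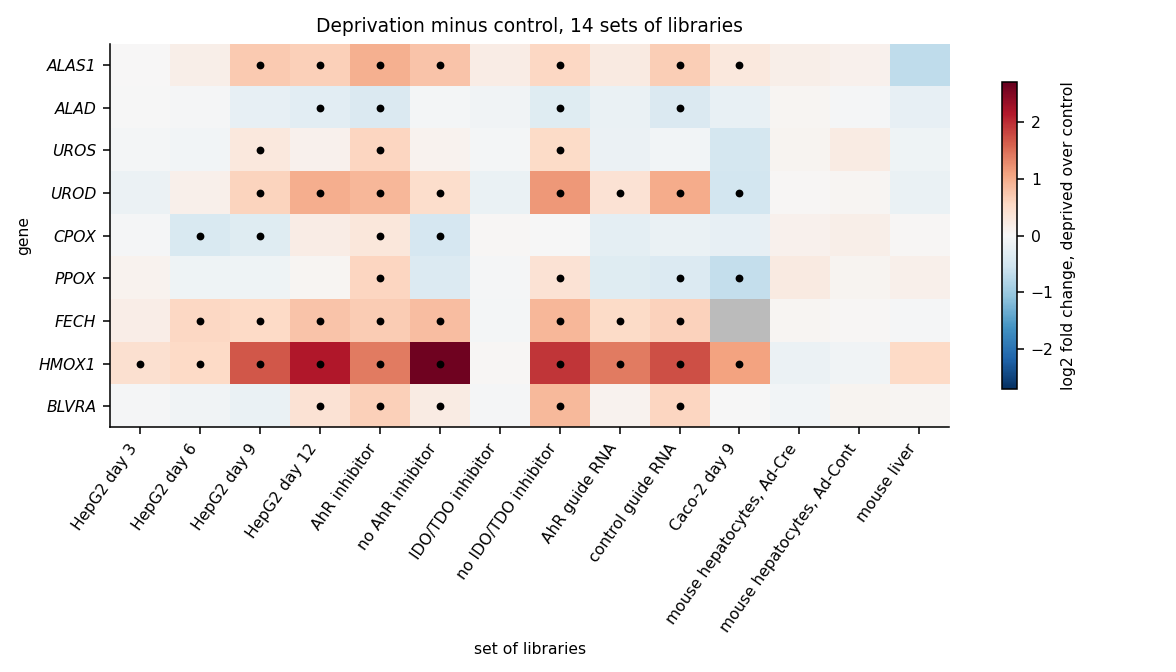
Difference on the log2(TPM + 1) scale, deprived minus control, for the 9 genes (rows) in each set (columns); a dot marks an adjusted p under 0.05 and grey a gene that was not tested. HMOX1 is called in all HepG2 deprivation sets except that with IDO/TDO inhibitor, at 0.44 to 2.62, and no gene is called in the mouse columns.

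The AhR inhibitor set asked how much of the deprivation response remained with AhR blocked. With inhibitor, deprivation raised 8 of the 9 genes and lowered ALAD. Without it, 5 rose and CPOX fell, against 3 higher and 2 lower under quantile normalization or median scaling. The calls numbered 9 of 9 with inhibitor, where 57.5% of all genes were called (45.1% higher and 12.4% lower), and 6 of 9 without it, where 61.5% were (44.6% higher and 16.9% lower). The median difference was 0.65 over the 9 genes with inhibitor and 0.22 without it, against 0.24 and 0.23 over all genes. HMOX1 was higher under deprivation in both arms, ALAS1, UROD and FECH likewise. CYP1A1 averaged 1.63 TPM in deprived cells with inhibitor and 14.6 TPM without it. The column headers date the libraries with inhibitor differently from those without. Libraries with inhibitor held 12577700 to 19428000 reads and those without held 5891600 to 8976000. Inhibitor, date and depth thus cannot be told apart when the arms are compared. AHR mRNA ranged between 3.20 and 7.45 TPM in control cells with inhibitor, the widest spread of the 4 groups, and replicate 3 held the highest level.

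HMOX1 stood at 25.6, 23.2 and 24.7 TPM in deprived and 11.1, 9.36 and 6.09 TPM in control cells with AhR inhibitor (1.40, SE 0.17, adjusted p = 2.4e-05). Without inhibitor it stood at 32.8, 36.1 and 34.8 TPM in deprived and 6.21, 3.94 and 4.40 TPM in control cells (2.62, SE 0.17, adjusted p = 9.39e-08). Deprived and control libraries did not overlap in either arm. The effect was smaller with inhibitor by 1.22 (SE 0.25, adjusted p = 0.00355), and by 1.44 without replicate 3 of the inhibited controls (adjusted p = 7.04e-05). In control cells the inhibitor went with more HMOX1 (0.74, SE 0.17, adjusted p = 0.00576), although 1 library of 6.09 TPM overlapped. In deprived cells it went with less (-0.48, adjusted p = 0.0430), a call lost on leaving out any 1 of the 6 libraries (adjusted p = 0.0710 to 0.119).

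ALAS1 stood at 10.9, 11.1 and 11.0 TPM in deprived and 4.78, 5.62 and 5.08 TPM in control cells with inhibitor (0.96, SE 0.09, adjusted p = 1.06e-06). Without inhibitor it stood at 8.25, 9.24 and 7.93 TPM in deprived and 4.47, 4.90 and 4.34 TPM in control cells (0.76, SE 0.09, adjusted p = 8.1e-06). The effects differed by 0.20 (SE 0.12, adjusted p = 0.273), which did not pass. FECH was at 2.35, 2.65 and 2.52 TPM in deprived and 1.21, 1.16 and 1.21 TPM in control cells with inhibitor, a difference of 0.68 (SE 0.13, adjusted p = 0.000498), and its difference without inhibitor was 0.83 (SE 0.13, adjusted p = 8.84e-05). UROD was at 25.1, 29.0 and 23.7 TPM in deprived and 9.75, 14.9 and 16.5 TPM in control cells with inhibitor (0.90, SE 0.15, adjusted p = 0.000298). Without inhibitor UROD was at 35.7, 30.9 and 28.7 TPM in deprived and 24.6, 22.0 and 20.9 TPM in control cells (0.48, SE 0.15, adjusted p = 0.0168). That call was lost without control replicate 3 (adjusted p = 0.0587) or deprived replicate 1 (adjusted p = 0.0687), and under quantile normalization (0.26, adjusted p = 0.131) and median scaling (0.23, adjusted p = 0.192).

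CPOX changed in opposite directions in the 2 arms. It was at 9.05, 8.04 and 8.65 TPM in deprived and 7.04, 7.87 and 5.47 TPM in control cells with inhibitor (0.31, SE 0.12, adjusted p = 0.0357). Without inhibitor it was at 6.01, 5.20 and 5.08 TPM in deprived and 8.66, 7.51 and 7.43 TPM in control cells (-0.46, SE 0.12, adjusted p = 0.00359). The interaction was 0.77 (SE 0.16, adjusted p = 0.00426), but the rise with inhibitor was lost without inhibited control replicate 3, or without inhibited deprived replicate 1 or 3 (adjusted p = 0.0828 to 0.119), and under both scalings. PPOX also had differences of opposite sign in the arms. It stood at 2.04, 1.79 and 1.75 TPM in deprived and 1.01, 0.555 and 1.25 TPM in control cells with inhibitor (0.58, SE 0.15, adjusted p = 0.00542, and 0.0530 under quantile normalization). Without inhibitor PPOX stood at 1.68, 1.64 and 1.38 TPM in deprived and 2.04, 1.89 and 3.12 TPM in control cells (-0.37, SE 0.15, adjusted p = 0.0504). That difference passed without control replicate 2 (-0.46, adjusted p = 0.0303) and under quantile normalization (-0.57, adjusted p = 0.00685) and median scaling (-0.53, adjusted p = 0.0110). The PPOX interaction was 0.95 (SE 0.22, adjusted p = 0.00658), and in control cells PPOX was lower with inhibitor (-0.79, adjusted p = 0.00143).

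BLVRA was at 25.9, 28.9 and 26.1 TPM in deprived and 17.0, 17.4 and 16.0 TPM in control cells with inhibitor (0.65, SE 0.07, adjusted p = 7.8e-06). Without inhibitor it was at 22.6, 23.7 and 22.6 TPM in deprived and 20.9, 19.2 and 18.8 TPM in control cells (0.22, SE 0.07, adjusted p = 0.0206). That smaller difference was close to the median of 0.23 over all genes, became -0.01 under quantile normalization (adjusted p = 0.958) and -0.03 under median scaling (adjusted p = 0.773), and missed the threshold without control replicate 2 or 3 or deprived replicate 2 (adjusted p = 0.0623 to 0.0736). The interaction of BLVRA was 0.43 (SE 0.10, adjusted p = 0.00891). With inhibitor, UROS was higher under deprivation (0.57, SE 0.12, adjusted p = 0.00115) and ALAD lower (-0.39, SE 0.11, adjusted p = 0.0105). The ALAD call was lost without inhibited control replicate 2 (adjusted p = 0.0529). Interaction calls numbered 4 of 9 (CPOX, PPOX, BLVRA and HMOX1), where 22.5% of all genes were called. The UROS interaction of 0.47 did not pass (adjusted p = 0.0615), but passed without replicate 3 of the inhibited controls (0.57, adjusted p = 0.0118) and under quantile normalization (0.45, adjusted p = 0.0452).

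The inhibitor arms were also compared within each medium, where inhibitor, date and depth cannot be told apart. In deprived cells 3 genes were higher with inhibitor and 2 lower, where 40.3% of all genes were called (18.6% higher and 21.7% lower). Under either scaling 3 were higher and 0 lower. CPOX (0.58, SE 0.12, adjusted p = 0.00157) and ALAS1 (0.34, SE 0.09, adjusted p = 0.00696) kept their calls under every alternative tried. BLVRA (0.22, adjusted p = 0.0279) lost its call on leaving out any 1 of 3 libraries (adjusted p = 0.0771 to 0.127), and ALAD (-0.31, adjusted p = 0.0452) on leaving out any 1 of 6 (adjusted p = 0.0608 to 0.143). In control cells 4 of 9 genes were called, where 35.9% of all genes were. UROD was lower with inhibitor by 0.70 (SE 0.15, adjusted p = 0.00359) there, and BLVRA by 0.21 (adjusted p = 0.0377), a call lost on leaving out any 1 of 4 libraries (adjusted p = 0.0574 to 0.133).

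In the IDO/TDO inhibitor set, limma called 8 of the 9 genes for deprivation without inhibitor and none for the libraries labelled deprived with inhibitor. Those libraries were close to their controls over all genes and not only over the 9, and no value in the files checks their medium, so a response lost with inhibitor and cells that had not been deprived cannot be told apart in any result of that arm. Without inhibitor 7 rose and ALAD fell, where 67.9% of all genes were called (53.6% higher and 14.3% lower). Under quantile normalization or median scaling 5 rose and 2 fell there, CPOX being the second (-0.31, adjusted p = 0.00358, and -0.32, adjusted p = 0.00344). With inhibitor the count by limma was 0 of 9 at the adjusted threshold, 0 at an unadjusted p under 0.05 and 0 by limma-voom, and 1.39% of all genes were called. The median difference was -0.04 over the 9 genes with inhibitor and 0.55 without it, against 0.03 and 0.30 over all genes. The summed hepatocyte markers lay at 23806 to 24565 TPM in deprived and 27187 to 27898 TPM in control cells with inhibitor, and at 7030 to 7306 TPM in deprived and 26135 to 27518 TPM in control cells without it. The part of these markers in the result was not tested.

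HMOX1 was at 6.77, 8.58 and 7.95 TPM in deprived and 7.55, 7.59 and 7.40 TPM in control cells with IDO/TDO inhibitor (0.04, SE 0.10, adjusted p = 0.928). Without inhibitor it was at 29.1, 27.2 and 31.3 TPM in deprived and 7.88, 6.22 and 6.79 TPM in control cells (1.93, SE 0.10, adjusted p = 7.27e-11). The deprived cells without inhibitor were the only high group of the 4, and the interaction was -1.89 (SE 0.14, adjusted p = 1.61e-08). UROD had the same layout, at 11.2, 12.1 and 13.6 TPM in deprived and 14.2, 14.2 and 13.6 TPM in control cells with inhibitor, against 34.3, 30.1 and 30.4 TPM in deprived and 14.3, 14.2 and 12.2 TPM in control cells without it. Its difference was -0.18 with inhibitor (SE 0.09, adjusted p = 0.408) and 1.16 without it (SE 0.09, adjusted p = 7.92e-09), with an interaction of -1.34 (SE 0.12, adjusted p = 2.17e-07).

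FECH was at 0.869, 0.746 and 0.844 TPM in deprived and 0.796, 0.924 and 0.910 TPM in control cells with inhibitor, against 2.32, 2.72 and 2.61 TPM in deprived and 0.832, 0.745 and 1.12 TPM in control cells without it. Its interaction was -0.95 (SE 0.15, adjusted p = 5.29e-05). BLVRA was at 9.47, 13.5 and 14.8 TPM in deprived and 11.4, 12.4 and 14.7 TPM in control cells with inhibitor, against 26.3, 26.0 and 21.7 TPM in deprived and 12.8, 12.8 and 13.4 TPM in control cells without it. Its difference without inhibitor was 0.87 (SE 0.13, adjusted p = 4.55e-05) and its interaction -0.91 (SE 0.19, adjusted p = 0.00104). For these genes only the deprived cells without inhibitor stood apart from the other 3 groups.

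ALAS1 was at 4.31, 3.94 and 3.92 TPM in deprived and 3.61, 3.44 and 3.23 TPM in control cells with inhibitor, against 6.02, 5.97 and 6.63 TPM in deprived and 3.31, 4.18 and 4.30 TPM in control cells without it. With inhibitor the 3 deprived libraries still lay above the 3 controls, by 0.19 (SE 0.10, adjusted p = 0.443), which did not pass. Without inhibitor the difference was 0.55 (SE 0.10, adjusted p = 9.8e-05). The ALAS1 interaction of -0.36 (SE 0.14, adjusted p = 0.0349) was lost on leaving out any 1 of 6 libraries (adjusted p = 0.0605 to 0.0905) and was -0.08 under both scalings. That of UROS (-0.57, SE 0.20, adjusted p = 0.0255) was lost on leaving out any 1 of 7 libraries (adjusted p = 0.0505 to 0.0664) and was -0.29 and -0.28 under the scalings. Without inhibitor UROS rose by 0.52 (SE 0.14, adjusted p = 0.00448), not called under both scalings, ALAD fell by 0.33 (SE 0.08, adjusted p = 0.00223), and PPOX rose by 0.39 (SE 0.16, adjusted p = 0.0373). The PPOX call was lost on leaving out any 1 of 4 libraries (adjusted p = 0.0729 to 0.184). CPOX was at -0.01 without inhibitor (adjusted p = 0.907) and at 0.04 with it (adjusted p = 0.917). Interaction calls numbered 6 of 9, all lower with inhibitor, where 53.7% of all genes were called (41.5% lower). Under both scalings there were 4 lower calls and 2 higher ones, ALAD (0.51, adjusted p = 0.000444, and 0.52, adjusted p = 0.000374) and CPOX (0.32, adjusted p = 0.0292, and 0.33, adjusted p = 0.0270).

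Within libraries labelled deprived, 6 of the 9 genes were lower with IDO/TDO inhibitor and ALAD was higher. Of all genes 65.7% were called (16.1% higher and 49.6% lower). As above, a response lost with inhibitor and cells that had not been deprived cannot be told apart here. HMOX1 was lower by 1.79 (SE 0.10, adjusted p = 1.67e-10), UROD by 1.29 (SE 0.09, adjusted p = 2.18e-09), FECH by 0.96 (SE 0.10, adjusted p = 5.81e-07) and ALAS1 by 0.51 (SE 0.10, adjusted p = 0.000212). UROS was lower by 0.59 (adjusted p = 0.00167), a call lost under quantile normalization and median scaling, where CPOX was called as higher instead (0.41 and 0.42). Within control cells the count was 0 of 9 by limma, 0 at an unadjusted p under 0.05 and 0 by limma-voom, and 0.00872% of all genes were called.

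**Figure D3:**
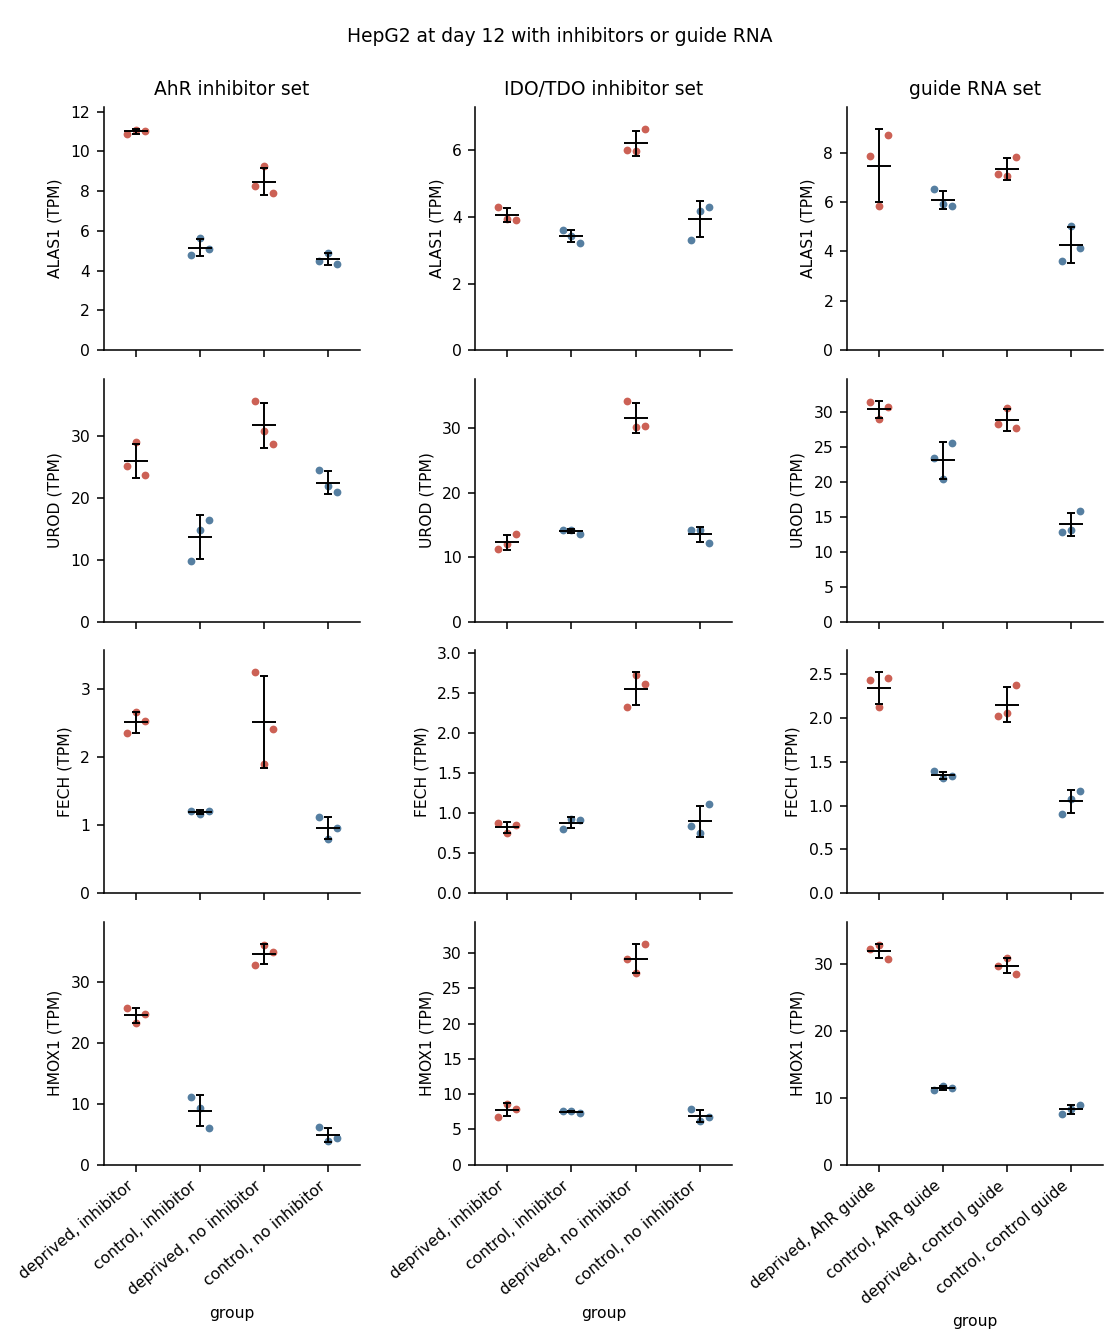
ALAS1, UROD, FECH and HMOX1 (TPM) in HepG2 with AhR inhibitor, IDO/TDO inhibitor and guide RNA; points are libraries, 3 per group, and bars show the mean ± SD, with the axis starting at 0. With IDO/TDO inhibitor deprived HMOX1 lies at 6.77 to 8.58 TPM, whereas with AhR inhibitor it lies at 23.2 to 25.6 TPM and with AhR guide RNA at 30.8 to 32.9 TPM.

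With guide RNA, deprivation moved 3 of the 9 genes in cells with AhR guide and 7 in cells with control guide. HMOX1, UROD and FECH rose in both. ALAS1 and BLVRA rose, and ALAD and PPOX fell, in cells with control guide and did not pass by limma with AhR guide. With AhR guide the calls were 3 higher and 0 lower, against 3 higher and 4 lower under quantile normalization and 2 higher and 3 lower under median scaling. Calls covered 53.2% of all genes with AhR guide (37.6% higher) and 60.7% with control guide (43.6% higher and 17.1% lower). The median difference was 0.10 over the 9 genes with AhR guide and 0.58 with control guide, against 0.15 and 0.20 over all genes. The summed hepatocyte markers were 7205 to 7545 TPM in deprived and 18912 to 20004 TPM in control cells with AhR guide, and 6023 to 6283 TPM in deprived and 24124 to 24666 TPM in control cells with control guide.

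HMOX1 was at 32.4, 32.9 and 30.8 TPM in deprived and 11.2, 11.8 and 11.6 TPM in control cells with AhR guide (1.40, SE 0.07, adjusted p = 1.42e-09). With control guide it was at 29.8, 31.0 and 28.6 TPM in deprived and 7.59, 8.39 and 8.88 TPM in control cells (1.73, SE 0.07, adjusted p = 9.22e-11). The interaction was -0.33 (SE 0.09, adjusted p = 0.0302), and this call was lost on leaving out any 1 of 7 libraries (adjusted p = 0.0530 to 0.0752) and under both scalings (adjusted p = 0.0519 and 0.0604). In control medium AhR guide went with more HMOX1 (0.43, SE 0.07, adjusted p = 0.000203). In deprived cells the guides differed by 0.10 (SE 0.07, adjusted p = 0.385).

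UROD followed the same layout, at 31.5, 29.0 and 30.7 TPM in deprived and 23.4, 20.4 and 25.6 TPM in control cells with AhR guide, against 28.3, 30.7 and 27.8 TPM in deprived and 12.8, 13.1 and 15.9 TPM in control cells with control guide. Its difference was 0.38 with AhR guide (SE 0.09, adjusted p = 0.00291, and 0.0526 under median scaling) and 1.01 with control guide (SE 0.09, adjusted p = 4.94e-07). The interaction was -0.62 (SE 0.13, adjusted p = 0.00614). In control medium the AhR guide went with more UROD (0.69, SE 0.09, adjusted p = 5.58e-05), and all 3 libraries lay above those with control guide.

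FECH was at 2.43, 2.13 and 2.46 TPM in deprived and 1.39, 1.32 and 1.33 TPM in control cells with AhR guide (0.51, SE 0.10, adjusted p = 0.000553). With control guide it was at 2.03, 2.06 and 2.38 TPM in deprived and 0.906, 1.07 and 1.16 TPM in control cells (0.62, SE 0.10, adjusted p = 7.25e-05). The FECH effects did not differ detectably (-0.12, SE 0.14, adjusted p = 0.627). ALAS1 was at 7.88, 5.85 and 8.71 TPM in deprived and 6.52, 5.91 and 5.84 TPM in control cells with AhR guide, where 1 deprived library fell within the control range (0.24, SE 0.13, adjusted p = 0.117). Without that library, deprived AhR guide replicate 2, the difference was 0.39 and passed (adjusted p = 0.0129). With control guide ALAS1 was at 7.13, 7.06 and 7.84 TPM in deprived and 3.62, 5.05 and 4.13 TPM in control cells (0.67, SE 0.13, adjusted p = 0.000395). The ALAS1 interaction of -0.43 did not pass by limma (SE 0.18, adjusted p = 0.129). Voom called ALAS1 both for this interaction and for deprivation with AhR guide.

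BLVRA was at 22.2, 22.0 and 25.8 TPM in deprived and 20.6, 23.0 and 21.3 TPM in control cells with AhR guide, with overlap, against 26.0, 29.9 and 28.2 TPM in deprived and 20.0, 17.9 and 17.4 TPM in control cells with control guide. Its interaction was -0.47 (SE 0.11, adjusted p = 0.0139). UROS was higher with AhR guide in both media, at 9.45, 9.63 and 8.01 TPM with AhR guide and 5.81, 6.34 and 6.33 TPM with control guide in deprived cells, and at 11.7, 9.40 and 9.54 TPM with AhR guide and 5.45, 6.49 and 7.84 TPM with control guide in control cells. These differences were 0.48 in deprived cells (adjusted p = 0.0156, and 0.0577 to 0.0648 without any 1 of 3 libraries) and 0.57 in control cells (adjusted p = 0.00176). Interaction calls numbered 3 of 9, where 14.4% of all genes were called. The AhR guide changed 1 of 9 genes in deprived cells, where 12% of all genes were called, and 5 of 9 in control cells, where 36.7% were. The other calls in control cells were ALAS1 (0.44, adjusted p = 0.0146, and 0.0551 or 0.0682 without replicate 1 of either group) and BLVRA (0.22, adjusted p = 0.0482, and 0.0535 to 0.166 without any 1 of 5 libraries).

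With control guide ALAD stood at 7.20, 7.27 and 5.36 TPM in deprived and 8.21, 10.1 and 8.56 TPM in control cells (-0.39, SE 0.12, adjusted p = 0.0136). That call was lost without control replicate 2 or deprived replicate 3 (adjusted p = 0.0628 and 0.0738). PPOX stood at 1.12, 1.34 and 1.26 TPM in deprived and 1.41, 1.97 and 2.43 TPM in control cells with control guide (-0.38, SE 0.14, adjusted p = 0.0307), a call lost on leaving out any 1 of 4 libraries (adjusted p = 0.0585 to 0.134). With AhR guide PPOX differed by -0.33 (adjusted p = 0.0624), which passed without replicate 1 of the control cells (-0.45, adjusted p = 0.0185). CPOX differed by -0.27 with AhR guide (adjusted p = 0.0792), which passed without replicate 1 of the deprived cells (-0.45, adjusted p = 0.00155), and by -0.18 with control guide (adjusted p = 0.231). Under both scalings CPOX was called as lower with either guide (-0.42 and -0.43 with AhR guide, -0.38 and -0.38 with control guide).

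For Kyn, set against DMSO, none of the 9 genes passed by limma. It called 0 of 9 without inhibitor, 2 passed at an unadjusted p under 0.05 (UROS and HMOX1) and voom called 0, where 11.7% of all genes were called. With AhR inhibitor limma called 0 of 9, 3 passed unadjusted (ALAD, UROD and BLVRA) and voom called ALAD, where 10.8% of all genes were called. HMOX1 was at 6.89, 6.18 and 6.24 TPM with Kyn and 8.77, 8.41 and 8.93 TPM with DMSO, so that all 3 Kyn libraries lay below (-0.38, SE 0.13, adjusted p = 0.0745). This difference passed under median scaling (-0.42, adjusted p = 0.0486) and in a fit of the compared groups only (adjusted p = 0.0259). With AhR inhibitor HMOX1 was at 7.98, 7.89 and 5.81 TPM with Kyn and 8.94, 6.16 and 8.53 TPM with DMSO (-0.11, SE 0.13, adjusted p = 0.658). The Kyn effect differed between the arms for 0 of 9 genes by limma, with 2 at an unadjusted p under 0.05 and 0 by voom, where 8.94% of all genes were called. In Kyn-treated cells 21.9% of all genes were called for the inhibitor and 17.6% fell, and 2 of the 9 were called as lower, near that share. They were UROD, at 11.4, 12.5 and 10.4 TPM with inhibitor and 17.0, 18.5 and 14.4 TPM without it (-0.49, SE 0.14, adjusted p = 0.0209), and BLVRA (-0.34, SE 0.11, adjusted p = 0.0446). Each of these calls was lost on leaving out any 1 of 4 libraries (adjusted p = 0.0517 to 0.0789 for UROD, 0.0908 to 0.160 for BLVRA). Both were also lost without the filter, under quantile normalization and under median scaling. The median difference for the inhibitor in Kyn-treated cells was -0.12 over the 9 genes and -0.13 over all genes. In DMSO-treated cells the inhibitor changed 0 of 9 genes by limma, 0 at an unadjusted p under 0.05 and 0 by voom, and 0% of all genes were called.

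In Caco-2, deprivation raised HMOX1 and ALAS1 and lowered UROD and PPOX. The 4 calls among 8 genes tested stand against 33.7% of all 11888 genes, 14.3% higher and 19.5% lower. HMOX1 was at 7.80, 6.46 and 7.99 TPM in deprived and 3.92, 2.37 and 2.77 TPM in control cells (1.08, SE 0.15, adjusted p = 0.000413), without overlap, and this call held without any 1 library. ALAS1 was at 16.8, 17.5 and 18.5 TPM in deprived and 13.4, 13.5 and 16.2 TPM in control cells (0.28, SE 0.09, adjusted p = 0.0411), a call lost on leaving out any library but control replicate 3 (adjusted p = 0.0596 to 0.126). UROD, which rose in HepG2, was at 3.76, 4.22 and 2.60 TPM in deprived and 4.89, 5.82 and 5.17 TPM in control cells (-0.49, SE 0.15, adjusted p = 0.0272). PPOX was at 0.858, 1.04 and 0.791 TPM in deprived and 1.68, 1.42 and 3.03 TPM in control cells (-0.65, SE 0.19, adjusted p = 0.0256). The UROD call was lost without control replicate 2 or 3 or deprived replicate 3 (adjusted p = 0.0583 to 0.0924), and the PPOX call without control replicate 3 or deprived replicate 1 or 3 (adjusted p = 0.0600 to 0.0867). UROS was at 2.67, 3.48 and 5.52 TPM in deprived and 4.91, 6.58 and 5.29 TPM in control cells (-0.46, SE 0.20, adjusted p = 0.101), which passed without deprived replicate 3 (-0.69, adjusted p = 0.0104) and with voom (-0.64, adjusted p = 0.0339). FECH, at 0.389 to 0.585 TPM in deprived and 0.547 to 0.622 TPM in control cells, was below the filter. All 5 enterocyte markers were detected, summing to 85.8 to 92.2 TPM in deprived and 138 to 146 TPM in control cells, and their part in these differences was not tested. Whether UROD responded differently in the 2 lines was not tested, since the tables were made separately.

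In mouse hepatocytes none of the 9 genes passed by limma for deprivation. With Ad-Cre limma called 0 of 9, 1 passed at an unadjusted p under 0.05 (Alas1) and voom called 0, where 0.329% of all genes were called. With Ad-Cont limma called 0, 0 passed unadjusted and voom called 0, where 9.78% of all genes were called. Hmox1 (mm10 chr8:75093618-75100593, plus strand) was at 47.5, 47.8 and 44.5 TPM in deprived and 52.4, 52.6 and 51.1 TPM in control cells with Ad-Cre (-0.16, SE 0.12, adjusted p = 0.730). With Ad-Cont it was at 63.9, 40.8 and 45.1 TPM in deprived and 56.8, 50.3 and 49.5 TPM in control cells (-0.09, SE 0.12, adjusted p = 0.718). Deprived replicate 1 was above all the others, and without it the difference was -0.27 (adjusted p = 0.0388). Macrophage markers in deprived cells with Ad-Cont summed to 69.2 to 153 TPM, the widest range of the 4 groups, with Cd163 at 0 in that group, and their part was not tested. Alas1 (mm10 chr9:106233455-106247730, minus strand) was at 26.5, 27.7 and 27.9 TPM in deprived and 25.0, 24.0 and 23.9 TPM in control cells with Ad-Cre (0.16, SE 0.07, adjusted p = 0.448). With Ad-Cont it was at 30.7, 29.5 and 26.4 TPM in deprived and 26.2, 26.3 and 27.6 TPM in control cells (0.11, SE 0.07, adjusted p = 0.388).

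The difference between the Ad-Cre and Ad-Cont effects, and Ad-Cre within each medium, gave 0 of 9 calls each by limma, 0 at an unadjusted p under 0.05 and 0 by voom. Of all genes, 0.247% were called for the difference of effects, 1.03% for Ad-Cre in deprived cells and 0.0247% for Ad-Cre in control cells. Ahr averaged 7.10 TPM with Ad-Cre and 10.2 TPM with Ad-Cont in deprived cells (adjusted p = 0.0225). The floxed exon is not given in the sources used here, so 3′ reads need not report its loss.

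In mouse liver no gene of the 9 passed by limma, 2 passed at an unadjusted p under 0.05 (Hmox1 and Alas1) and voom called Alas1, where 3.41% of all genes were called. Alas1 stood at 273, 433, 543 and 421 TPM in deprived and 566, 710, 593 and 754 TPM in control livers, so that every deprived liver was below every control. The difference was -0.68 (SE 0.19, adjusted p = 0.0692). It passed without deprived replicate 3 (-0.82, adjusted p = 0.0462), under median scaling (-0.87, adjusted p = 0.0341) and with voom (-0.77, adjusted p = 0.0429). Each liver library held 11907 to 35272 Alas1 reads, so counting error is small beside the spread between livers. Hmox1 stood at 18.9, 11.8, 16.4 and 18.4 TPM in deprived and 10.6, 9.78, 9.94 and 13.2 TPM in control livers, with 1 deprived library inside the control range (0.54, SE 0.16, adjusted p = 0.0766). Without that library, deprived replicate 2, the difference was 0.68 (adjusted p = 0.0451).

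Urod was at 48.6, 48.4, 52.5 and 53.5 TPM in deprived and 59.2, 56.0, 56.0 and 58.3 TPM in control livers, again without overlap (-0.18, SE 0.10, adjusted p = 0.298). Fech was at 75.0, 70.4, 59.0 and 68.7 TPM in deprived and 70.2, 68.5, 69.1 and 70.5 TPM in control livers (-0.03, SE 0.11, adjusted p = 0.881). Alas2, the erythroid counterpart of Alas1 and not one of the 9, fell by 1.44 (SE 0.14, adjusted p = 0.000258). The 8 erythroid markers, Alas2 among them, summed to 162 to 403 TPM in deprived and 292 to 441 TPM in control livers, with Epb42 at 0 in controls. The 10 hepatocyte markers summed to 51014 to 71782 TPM in deprived and 52988 to 62752 TPM in control livers. The part of blood cells in the liver values was not tested.

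**Figure D4:**
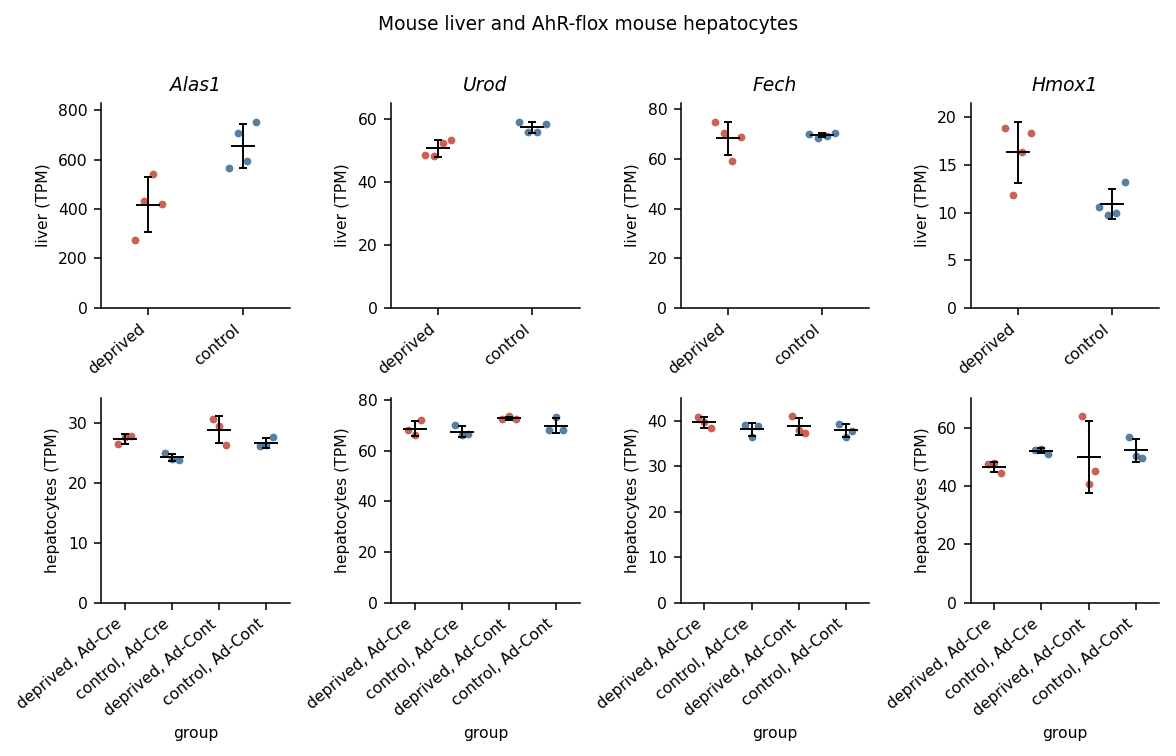
Alas1, Urod, Fech and Hmox1 (TPM, vertical axes starting at 0) in mouse liver (4 columns per group) and mouse hepatocytes (3 libraries per group), deprived left of control; points are libraries and bars the mean ± SD. In liver, deprived Alas1 lies at 273 to 543 TPM and control Alas1 at 566 to 754 TPM, while limma passed none of these genes for deprivation in either tissue; limma-voom and median scaling passed liver Alas1.

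Around the 9 genes, the other heme oxygenase and biliverdin reductase genes also moved in deprived HepG2. HMOX2, the constitutive oxygenase, averaged 20.1 ± 1.50 TPM in deprived and 14.3 ± 0.401 TPM in control cells at day 12 (0.46, SE 0.08, adjusted p = 3.56e-05). BLVRB, which reduces other biliverdin isomers and flavins, averaged 38.7 ± 6.49 TPM in deprived and 21.8 ± 2.10 TPM in control cells (0.79, SE 0.14, adjusted p = 9.14e-05; SD, n = 3 each). With AhR guide BLVRB rose by 1.24 and with control guide by 1.15, while HMOX2 was at 0.04 with AhR guide (adjusted p = 0.680) and rose by 0.33 with control guide. The median over all genes was 0.15 with AhR guide and 0.20 with control guide. For neither gene did the effects differ between the guides by limma. Under quantile normalization or median scaling 1 of the 2 calls with control guide remained. In Caco-2 HMOX2 fell by 0.29 (adjusted p = 0.0241) and BLVRB was at 0.10 (adjusted p = 0.186).

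Of 16 genes for transport of haem, its precursors and its iron, with partner proteins, 7 were higher and 5 lower in deprived HepG2 at day 12, against 4 and 5 under quantile normalization and 5 and 5 under median scaling, and their median was 0.04, against 0.10 over all genes. Of all genes 34% were higher and 18.4% lower at that day. The largest difference was in SLC48A1, which moves haem out of endosomes and lysosomes. It averaged 13.1 ± 1.50 TPM in deprived and 2.72 ± 0.386 TPM in control cells (1.92, SE 0.09, adjusted p = 6.5e-14; SD, n = 3 each), and was called at day 3 already (0.37, adjusted p = 0.0213). SLC25A39, a mitochondrial glutathione carrier, rose by 0.85, ABCG2, a porphyrin exporter, by 0.72, and TMEM14C, a mitochondrial porphyrin transporter, by 0.49. Beyond the 4 largest (SLC48A1, ABCB6, SLC25A39 and ABCG2), the genes named were chosen after their values were seen. ABCB6 fell by 0.93, the haem exporter FLVCR1 by 0.52, the iron carrier SLC25A28 by 0.50, and the haem-binding PGRMC2 and PGRMC1 by 0.48 and 0.47. COX10, COX15 and HCCS, which modify haem or attach it to cytochromes, all rose at day 12, by 0.39, 0.47 and 0.26, and 2 of the 3 passed under either scaling.

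In the other sets the same 16 genes gave 9 higher and 3 lower calls with AhR inhibitor, 9 higher and 5 lower without it, 8 higher and 4 lower with AhR guide, and 8 higher and 4 lower with control guide. Of all genes, 45.1% were higher and 12.4% lower with AhR inhibitor, 44.6% and 16.9% without it, 37.6% and 15.6% with AhR guide, and 43.6% and 17.1% with control guide. Under quantile normalization these were 7 and 4 with AhR inhibitor, 7 and 5 without it, 5 and 5 with AhR guide and 7 and 5 with control guide. With IDO/TDO inhibitor limma called 0 of 16, with 4 at an unadjusted p under 0.05 and 1 higher by voom, where 1.39% of all genes were called, against 9 higher and 4 lower without it (5 and 5 under quantile normalization), where 53.6% were higher and 14.3% lower. SLC48A1 differed by 1.62 with AhR inhibitor and 2.49 without it, by 1.83 with AhR guide and 2.19 with control guide, and by -0.17 with IDO/TDO inhibitor (adjusted p = 0.708) against 2.53 without it. In Caco-2 2 of 16 transport genes rose and 1 fell, where 14.3% of all genes were higher and 19.5% lower. Those counts were 1 higher and 5 lower by voom and 3 higher and 0 lower under quantile normalization, and SLC48A1 rose by 0.31 (adjusted p = 0.0424). In liver 1 of 16 was called, where 3.41% of all genes were. It was Clpx, part of the protease that handles ALAS1, which averaged 65.7 TPM in deprived and 34.5 TPM in control livers (0.85, SE 0.20, adjusted p = 0.0436). The Clpx call was lost under quantile normalization, median scaling and voom, each of which called Abcb10, a mitochondrial membrane transporter, as lower instead.

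**Figure D5:**
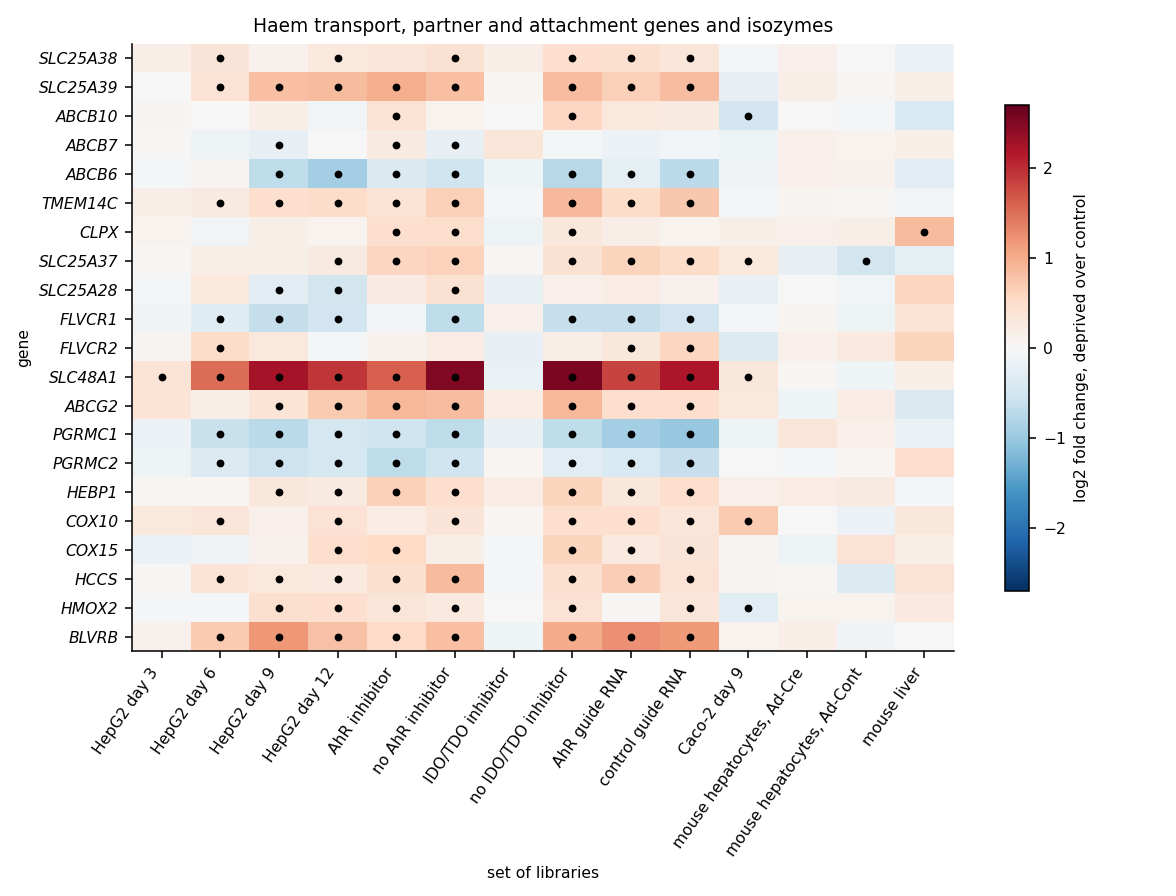
Difference on the log2(TPM + 1) scale for genes of haem transport and attachment and the other isozymes (rows) in the same sets (columns); a dot marks an adjusted p under 0.05. SLC48A1 is called in every HepG2 deprivation set except that with IDO/TDO inhibitor, at 0.37 to 2.53.

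Other textbook targets of BACH1 and NRF2 were examined beside HMOX1. The list was chosen with earlier results of these data known, so its counts are a description and not an independent test. Of 10 tested in HepG2, all 10 were higher in deprived cells at day 12, with a median of 1.54, where 34% of all genes were higher and their median was 0.10. FTL, the ferritin light chain, rose by 2.28 and NQO1 by 1.73. With AhR inhibitor and without it 10 of 10 rose, where 45.1% and 44.6% of all genes did. For 7 the effect was lower with inhibitor, where it was for 9.57% of all genes. In control cells 9 were higher and 1 lower with inhibitor, where 35.9% of all genes were called. In deprived cells 2 were higher and 6 lower, where 18.6% of all genes were higher and 21.7% lower. Inhibitor, date and depth cannot be told apart between these arms. With AhR guide and with control guide 10 of 10 rose under deprivation, where 37.6% and 43.6% of all genes did. For 6 the effect was lower with AhR guide, where it differed for 14.4% of all genes. Under quantile normalization it was lower for 3 and under median scaling for 5. In deprived cells 0 were higher and 5 lower with AhR guide, where 12% of all genes were called. In control cells 3 were higher and 2 lower, where 36.7% of all genes were called. With IDO/TDO inhibitor limma called 0 of 10, with 1 at an unadjusted p under 0.05 and 0 by voom, against 10 of 10 higher without it, where 1.39% of all genes were called with inhibitor and 53.6% were higher without it. All 11 tested in Caco-2 rose, with a median of 1.07, where 14.3% of all genes rose and their median was -0.07. In mouse hepatocytes limma called 0 of 9 with Ad-Cre, with 0 at an unadjusted p under 0.05 and 0 by voom, where 0.329% of all genes were called. With Ad-Cont 0 rose and Nqo1 fell by 0.93 (adjusted p = 0.00453), where 5.46% of all genes fell, while voom called 3 as lower. In liver limma called 0 of 8, with 5 at an unadjusted p under 0.05 and 0 by voom, where 3.41% of all genes were called.

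Across the 8 group means of the time course, patterns were compared by Pearson's r among genes averaging at least 10 TPM, as a description over means that share libraries. The genes most like HMOX1 were GNB1 (0.994), TNPO3 (0.991) and PIR (0.990). Those most like FECH were TXN (0.993), ACTG1 (0.985) and COX7A2 (0.985). ALAS1 was nearest to LSM1, MRPL27 and LAD1 (0.996 each), and UROD to CRIP2, GM2A and PDZD11 (0.994 each). BLVRA was nearest to DAD1 (0.984) and UROS to MAP2K3 (0.995), whereas ALAD had no gene above ECPAS (0.918). Within the pathway r was highest between BLVRA and PPOX (0.941), followed by ALAS1 and UROD (0.928) and HMOX1 and FECH (0.908). It was lowest between HMOX1 and ALAD (-0.767).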

How the data were processed

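Messenger RNA was read from its 3′ ends with the QuantSeq 3′ kit, per the labels' protocols. The submitters' processing notes name STAR, HOMER, Bowtie2 and the builds hg38 and mm10, and the deposited files hold TPM per gene with HOMER headers, which the authors computed. Versions and settings of these tools, and counts, are not in the sources used here. TPM divides by transcript length while 3′ reads do not grow with it, so levels of different genes are not compared, and the transcript the tables list for ALAS1, PPOX and BLVRA is not the same in all of them. In each deposited TPM column the low values are whole multiples of what 1 read is worth, within 0.1 read in 100% of values checked. The reads recovered in this way were used for depth (4049600 to 19644000 per library) and for an alternative test. Listed genes summed to 359500 to 405213 TPM in human and 569555 to 581347 TPM in mouse libraries.

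A gene was tested where 3 libraries of its table (4 for liver) reached 1 TPM. The tests thus covered 12488 genes for the HepG2 days, 11888 for Caco-2, 11916 for the AhR inhibitor, 11470 for the IDO/TDO inhibitor, 11893 for guides, 11798 for Kyn, 12155 for hepatocytes and 10820 for liver. All 9 genes passed in every table except Caco-2, where FECH did not. Each table was fitted on its own with limma 3.58.1 (R 4.3.3, with data.table version 1.17.8), applied to log2(TPM + 1), with a mean per group, moderated variances with trend and robust options, and Benjamini-Hochberg adjustment over all genes within each of 34 comparisons. The threshold was an adjusted p of 0.05, two-sided. The pseudocount of 1 TPM shrinks the differences of low genes. Differences of differences were contrasts of the same fit. The main limma fit was tested on simulated data for deprivation in HepG2 at day 12 and in mouse liver. Only a small part of the genes was changed there, in both directions. The simulation therefore does not check calls where much of the profile shifts, as in HepG2 at day 12. The other steps were not tested on simulated data.

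Alternatives were a pseudocount of 0.1 TPM, no filter, quantile normalization, median scaling, limma-voom on recovered reads, a replicate block, a fit of only the groups compared, and leaving out each library. Where a library was left out, a group of 2 shared the pooled variance. Samples were grouped by their labels. Liver columns name the diet alone, so they were used as replicates without numbers and no block could be fitted there. The replicate numbers did not pair samples: deviations of same-numbered samples from their group means had mean correlations of -0.04 to 0.01 by table.

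Named genes are the 9, AHR and CYP1A1 as label checks, up to 4 of each list with the largest change past the threshold in a comparison, and the 3 most similar genes for each of the 9. Of the similar genes, those printed are part of that set. The members and lists were chosen with earlier results of these data known. A few further listed genes are not reported here and are left out of the counts.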

Additional observations from a re-analysis of the deposited data

Results flagged for a closer look

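In control livers Ppox stood at 7.06 TPM in 1 library and at 5.72 to 5.89 TPM in the other 3, a gap of 0.869 of the group's range. Deprived livers were at 7.46, 7.39, 6.92 and 5.75 TPM. Such a gap is expected in about 1 of 20 groups by chance, and 18 liver groups were looked at.

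The deprivation effect differed, by limma at an adjusted p under 0.05, between day 12 and day 3 for BLVRA (0.42), FECH (0.59), ALAS1 (0.62), UROD (1.14) and HMOX1 (1.72), as log2 differences of effects. Of all genes 37.7% differed there, and the BLVRA call was lost on leaving out each of 8 libraries in turn. With and without AhR inhibitor the effect differed for CPOX (0.77), PPOX (0.95), BLVRA (0.43) and HMOX1 (-1.22), so that HMOX1 had the only lower effect with inhibitor among these 4. The effect differed for 22.5% of all genes between those arms. With and without IDO/TDO inhibitor it differed for FECH (-0.95), ALAS1 (-0.36), UROS (-0.57), UROD (-1.34), BLVRA (-0.91) and HMOX1 (-1.89). It differed there for 53.7% of all genes, and the medium of the inhibited libraries could not be checked. The ALAS1 call was lost on leaving out each of 6 libraries in turn, and the UROS call with 7. Between AhR guide and control guide the effect differed for UROD (-0.62), BLVRA (-0.47) and HMOX1 (-0.33), and for 14.4% of all genes. That HMOX1 call was lost on leaving out each of 7 libraries in turn.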

How the results depend on the processing

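Of 4236 values recomputed for single genes, 3980 kept their direction and side of the threshold, 177 lost the call, 77 gained it and 2 reversed. The reversed ones were BLVRA under deprivation without AhR inhibitor, at -0.0057 with quantile normalization and -0.030 with median scaling. Leaving out a library lost 106 calls and gained 21. The numbers of the 9 genes called moved as follows. Caco-2 gave 1 without the filter, against 4 (2 to 3 leaving out a library). AhR inhibitor in deprived cells gave 3 without the filter, with quantile normalization and with median scaling, against 5 (2 to 3 leaving out a library). Deprivation with AhR guide gave 7 with quantile normalization, 5 with median scaling and 5 with voom, against 3. AhR guide in deprived cells gave 2 with quantile normalization, against 1 (0 to 2 leaving out a library). Kyn gave 1 with median scaling and 1 in a fit of its groups only, against 0. Kyn with AhR inhibitor gave 1 with quantile normalization, median scaling or voom, against 0. AhR inhibitor in Kyn-treated cells gave 0 without the filter, with quantile normalization or with median scaling, against 2 (0 to 2 leaving out a library). Liver gave 1 with median scaling and 1 with voom, against 0 (0 to 1 leaving out a library), and deprivation with Ad-Cont gave 0 to 1 leaving out a library. The cause of these moves was not tested. With the replicate block, Kyn with AhR inhibitor gave 1 call (UROD, adjusted p = 0.0108) and the difference of the Kyn effects 2, against 0 each. The block also ended the calls of ALAD for AhR inhibitor in deprived cells (adjusted p = 0.0605) and BLVRA for AhR guide in control cells (adjusted p = 0.0682), but the samples share a number only. No paired analysis was possible in liver because its columns carry no numbers.

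Counts over all genes moved by more than 1.5 times for these comparisons under settings that keep every library. AhR inhibitor in control cells gave 2663 in a fit of its groups only, against 4278. Deprivation with IDO/TDO inhibitor gave 53 without the filter and 339 with voom, against 159, and the inhibitor in control cells gave 0 to 2, against 1. The guide interaction gave 2695 with voom, against 1712. Kyn with AhR inhibitor gave 748 with quantile normalization and 752 with median scaling, against 1279, and the Kyn interaction 636 without the filter, against 1055. Ad-Cont gave 776 in a fit of its groups only, against 1189. Ad-Cre gave 26 without the filter, 112 with voom and 127 in a fit of its groups only, against 40, and the Ad-Cre interaction 16 and 142 with the first pair of these, against 30. Ad-Cre in deprived cells gave 79, 249 and 73 under those settings, against 125, and in control cells 0 to 7, against 3. Liver gave 131 without the filter and 238 with quantile normalization, against 369.

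Leaving out 1 library moved counts over all genes by more than 1.5 times in these comparisons, so the shares of all genes printed for them are rough. Deprivation at day 3 gave 351 to 404, against 592, moved by 5 of 6 libraries. Deprivation with IDO/TDO inhibitor gave 60 to 166, against 159, moved by 5 of 6. AhR guide in deprived cells gave 848 to 1048, against 1429, moved by control guide replicate 2 and AhR guide replicate 1. Kyn gave 915 to 1137, against 1375, moved by Kyn replicate 1, and Kyn with AhR inhibitor 751 to 997, against 1279, moved by 3 of 6. Deprivation in liver gave 75 to 547, against 369, moved by 5 of 8. Ad-Cont gave 719 to 1081, against 1189, moved by 3 of 6, and Ad-Cre 16 to 32, against 40, moved by 4 of 6. The Ad-Cre interaction gave 11 to 186, against 30, moved by 10 of 12. Ad-Cre in deprived cells gave 49 to 204, against 125, moved by 5 of 6, and in control cells 0 to 1, against 3, moved by 6 of 6. The IDO/TDO inhibitor in control cells gave 0 to 1, against 1, and the AhR inhibitor in DMSO-treated cells 0 to 1, against 0.

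Depth limits PPOX most, with 10 to 98 reads per human library, and levels under a few TPM carry wide counting error. Intervals and p cover neither the 3′ priming nor the transcript choice of the tables.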

Other observations

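Of 12 tested proteins that carry haem, 6 were higher and 4 lower in deprived HepG2 at day 12, with a median difference of 0.25 against 0.10 over all genes, of which 34% were higher and 18.4% lower. CYGB, a globin, rose by 3.12 (adjusted p = 4.87e-17) and CYP1A1, a cytochrome P450 and classical AhR target, by 2.45 (adjusted p = 1.48e-13). CYP51A1, of cholesterol synthesis, fell by 1.66 (adjusted p = 3.34e-17) and CYP8B1, of bile acid synthesis, by 1.07 (adjusted p = 1.77e-06). In Caco-2 3 of 9 rose and 6 fell, with a median of -0.32 against -0.07 over all genes, of which 14.3% rose and 19.5% fell. CYP51A1 was among those that rose there, by 0.48 (adjusted p = 0.000722).

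Of 11 tested regulators of ALAS1 and HMOX1, 4 were higher and 3 lower in deprived HepG2 at day 12, against 3 higher and 4 lower under quantile normalization or median scaling. These counts are near the shares of all genes, 34% higher and 18.4% lower, and the median was -0.00 over the regulators and 0.10 over all genes. FOXO1 rose by 0.67, NFE2L2, which encodes NRF2, by 0.48, MAFG by 0.44 and NR1I2 by 0.32, while MAFK fell by 0.63, MAFF by 0.44 and HNF4A by 0.20. BACH1 did not pass (-0.00, adjusted p = 0.980). In Caco-2 6 of 9 regulators rose and 1 fell, with a median of 0.66 against -0.07 over all genes, of which 14.3% rose and 19.5% fell. MAFF rose by 1.97, NFE2L2 by 0.88, MAFG by 0.85 and MAFK by 0.76, BACH1 by 0.66 (adjusted p = 0.000846), and HNF4A fell by 0.46.

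Beyond the 4 of each list with the largest changes in a comparison, the genes named here, BACH1 included, were chosen after their values were seen.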
